A study of Mus musculus with 11 samples.

Results

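The interleukin-1 (IL-1) family and its receptors were described through 8 genes, picked by name from the 54532 genes of the count table: the ligands Il1a, Il1b, Il18 and Il33, the receptor antagonist Il1rn, and the receptor chains Il1r1, Il1rl1 and Il1rap. All 8 were found. The libraries were poly(A) RNA of whole pancreas from C57BL/6JRj mice, 1 mouse per library by the labels, without any transgene or deletion named. Young mice were 7 weeks old and aged mice 18 months old. Caerulein, an analogue of cholecystokinin that overstimulates the enzyme-secreting acinar cells and injures them, was injected into the peritoneum 4 times, 1 hour apart, at 125 µg/kg, and these libraries are labelled 5H. The notes on sampling time can be read in more than 1 way, so it is given only as that label. Untreated libraries came from 3 young and 2 aged mice, the latter numbered 2 and 3, and treated libraries from 3 mice of each age. The stated purpose of the series was to see how age alters the start of pancreatitis.

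IL-1α and IL-1β are agonists of 1 receptor, IL-1R1 (Il1r1), which signals only after it recruits the accessory protein Il1rap. Il1rn encodes a ligand that occupies IL-1R1 without recruiting Il1rap and so blocks both agonists. IL-33 acts in the same manner through ST2, encoded by Il1rl1, again with Il1rap as partner, while IL-18 has a receptor pair of its own. IL-1β and IL-18 are made as precursors that inflammasome caspases cut, IL-1β mostly by myeloid cells, whereas IL-33 is stored in the nuclei of epithelial, endothelial and stromal cells and is released when they are damaged. In the pancreas this family is known for driving local and systemic inflammation after acinar cell injury.

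Library totals ranged from 14223190 to 26537091 reads, and several of these genes rested on few reads. Levels below are CPM (reads per 1e+06 reads of the library) scaled by TMM (trimmed mean of M values, which matches libraries on their less variable genes). The labelled tissue was borne out by its enzyme genes, since the 6 acinar markers summed to between 1.74e+05 and 4.42e+05 CPM in every group. The library of young untreated mouse 2 stood apart. It held 141 CPM of B cell markers, 80.8 CPM of T cell markers, 68.3 CPM of lymph node stroma markers, 236 CPM of adipocyte markers and 377 CPM of macrophage and monocyte markers. In the other 10 libraries these sums reached at most 1.37, 1.35, 0.832, 23.9 and 107 CPM. Its part in each difference was not tested beyond leaving it out, and values without it stand beside those it moved most. In these bulk samples, more or fewer cells of a type and more or less RNA per cell cannot be told apart.

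After caerulein, the antagonist Il1rn rose and the accessory chain Il1rap fell at both ages. Il1b rose in young mice, where 1 of 3 libraries held most of its reads, and was at 2 to 4 reads per library in treated aged mice. Il33 was higher in every treated aged mouse than in every treated young mouse. Of the 6 genes with enough reads for the test, 3 passed in young mice (Il1b and Il1rn higher, Il1rap lower), where 52.3% of all 14113 genes tested passed, 27.5% higher and 24.7% lower. In aged mice 2 passed (Il1rn higher, Il1rap lower), where 48.2% of all genes passed, 27% higher and 21.2% lower. Passing means an adjusted p below 0.05 in edgeR's quasi-likelihood test. Caerulein thus moved about as large a share of all genes as of this family, and the counts alone set the family apart at neither age. Leaving out young untreated mouse 2 gave 3 of 6 in young mice, against 57.6% of all genes, and 3 of 6 in aged mice, where Il33 joined, against 58.3%. DESeq2 called 4 of 6 at each age, against 51.3% of all genes in young and 47.7% in aged mice, with Il33 added in young and Il33 and Il1r1 added in aged mice. The median log2 fold change of the 6 genes was 0.94 in young and 1.53 in aged mice, beside -0.06 and 0.07 over all genes tested. Il1b and Il1rn had few untreated reads and passed the read filter through treated libraries, which favours a rise in these counts and medians.

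Aged and young mice differed far less. Among untreated mice edgeR called 0 of the 6 genes (0 at an unadjusted p below 0.05, 0 by DESeq2), where 0.0921% of all genes passed, 0.446% by DESeq2 and 0.405% without young untreated mouse 2. Among treated mice it called 0 of 6, with 2 at an unadjusted p below 0.05, where 3.73% of all genes passed, 2.46% higher and 1.27% lower in aged mice. Those were Il1b, lower in aged mice, and Il33, higher in aged mice, and DESeq2 called both, against 6.47% of all genes. When young untreated mouse 2 was left out, which belongs to neither group, edgeR called both as well, against 14.2% of all genes. For the difference between the aged and the young response to caerulein, edgeR called 0 of 6 (1 at an unadjusted p below 0.05 and 1 by DESeq2, Il33 in each), where 0.0142% of all genes passed, 2% by DESeq2 and 2.29% without young untreated mouse 2. The comparisons share control libraries, so their values are set side by side and are not independent of each other.

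**Figure D1:**
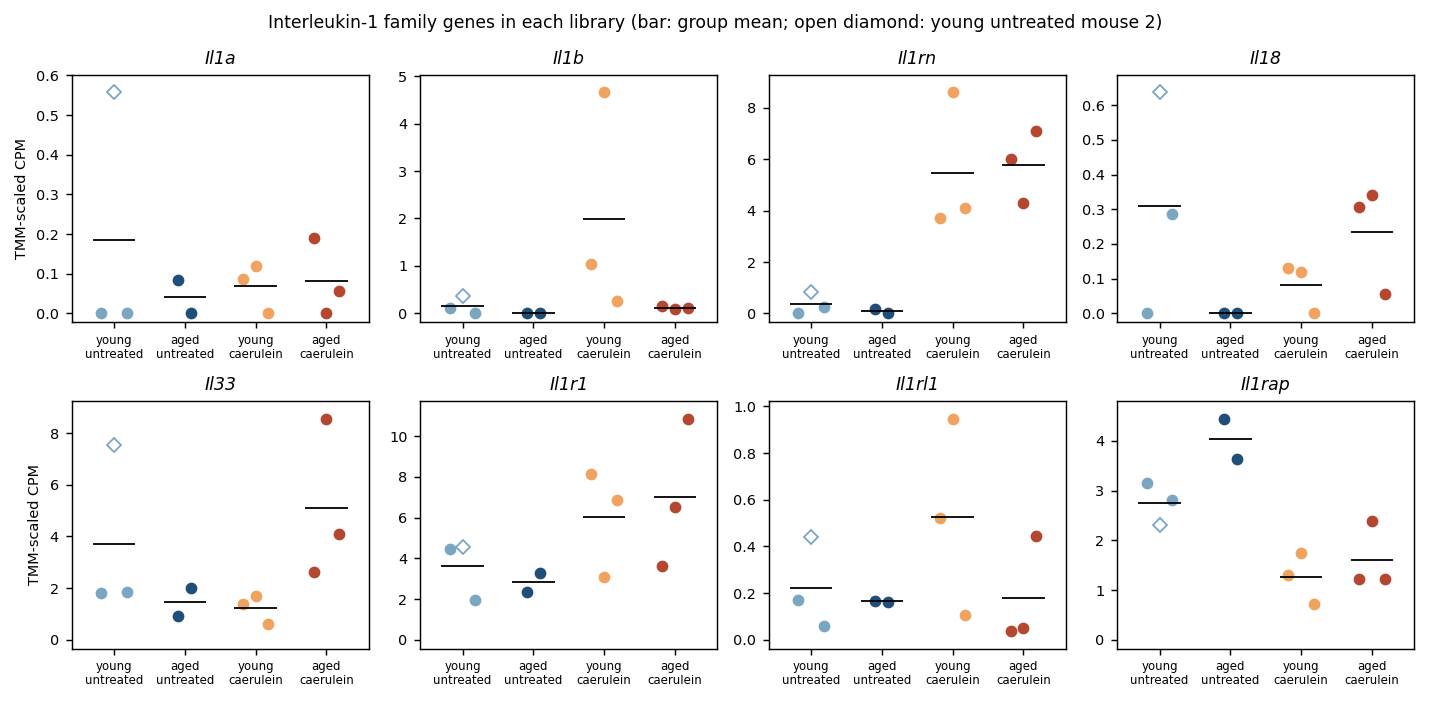
TMM-scaled CPM (vertical axes, linear, each panel with its own range) of the 8 genes in each of the 11 libraries, grouped along the horizontal axis by age and treatment. Points are single mice, bars are group means and the open diamond is young untreated mouse 2, which was the highest untreated library for every gene except Il1rap. Il1rn stood at 3.70 to 8.61 CPM in all 6 treated mice, while Il1b was at 1.05 and 4.66 CPM in 2 young ones and at 0.26 CPM or less in the other 4.

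Promoter sequences are shown for the 4 genes on which the results turn, so that the promoters of the cytokine, antagonist and receptor genes can be compared. They were taken from RefSeq on GRCm38.p6 (mm10), run 5′ to 3′ on the gene's strand and cover 250 bases before and 20 after an annotated start. All 8 genes were found in that table, several with more than 1 start. Capitals mark matches on either strand to a TATA box (TATAAA), an AP-1 motif (TGANTCA), a loose NF-kB motif (GGGNNNNNCC) or a C/EBP motif (TTGCNNAA). Of 32851 mouse promoters of this length, 12.9%, 7.23%, 47.9% and 10.1% held these letters, so a single match, above all to the NF-kB letters, is common.
Il1b, chr2:129371120-129371389, minus strand: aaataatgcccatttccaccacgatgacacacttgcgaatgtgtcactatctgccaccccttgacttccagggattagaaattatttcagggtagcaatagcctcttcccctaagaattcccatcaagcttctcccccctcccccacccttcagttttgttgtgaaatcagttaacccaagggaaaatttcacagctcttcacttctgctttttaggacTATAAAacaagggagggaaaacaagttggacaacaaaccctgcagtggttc
Il1rn, first start, chr2:24336610-24336879, plus strand: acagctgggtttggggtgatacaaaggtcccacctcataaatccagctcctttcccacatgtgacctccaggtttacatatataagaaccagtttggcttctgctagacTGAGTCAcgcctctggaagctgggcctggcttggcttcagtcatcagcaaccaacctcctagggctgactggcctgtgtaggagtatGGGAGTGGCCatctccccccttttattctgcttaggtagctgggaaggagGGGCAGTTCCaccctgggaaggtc
Il33, second start, chr19:29945540-29945809, plus strand: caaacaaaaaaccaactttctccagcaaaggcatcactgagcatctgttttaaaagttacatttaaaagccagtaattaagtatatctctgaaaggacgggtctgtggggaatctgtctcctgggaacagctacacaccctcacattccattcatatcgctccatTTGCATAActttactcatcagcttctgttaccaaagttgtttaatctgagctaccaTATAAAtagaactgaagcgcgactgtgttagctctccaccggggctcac
Il1rap, chr16:26581455-26581724, plus strand: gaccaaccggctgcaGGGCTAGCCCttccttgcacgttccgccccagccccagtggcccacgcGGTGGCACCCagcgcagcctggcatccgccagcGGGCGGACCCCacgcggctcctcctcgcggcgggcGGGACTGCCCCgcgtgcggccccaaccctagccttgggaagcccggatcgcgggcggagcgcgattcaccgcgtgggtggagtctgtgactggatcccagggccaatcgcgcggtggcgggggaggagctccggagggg
Il1b had TATAAA beginning 31 bases before its start and no match to the other motifs in this window. Il1rn had TGAGTCA 141 bases before its first start and NF-kB letters at 54 and at 4 bases before it. The later starts of Il1rn lay close together inside the gene, and the third had GGGTTTTTCC 51 bases before it. Il33 had TATAAA 29 bases and TTGCATAA 85 bases before its second start. Its first start, not shown, is at the start of the gene. It had TATAAA 203 bases before it and no match to the other motifs. Il1rap had no TATA box, 31 CpG dinucleotides and 74.8% G and C, against medians of 6 and 52.6% over all promoters, and 6 overlapping or separate matches to the NF-kB letters. The neighbour of Il1b on chromosome 2, Il1a, also had TATAAA, 32 bases before its start, and TGACTCA 12 bases before it. A match describes letters and is not a site, and nothing follows from a missing one.

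Il1b encodes the agonist IL-1β and is a protein-coding gene at chromosome 2, 129364570 to 129371139 on the minus strand (ENSMUSG00000027398, mm10). The young untreated mice had 2, 9 and 0 reads, the aged untreated mice 0 and 0, the young caerulein mice 24, 118 and 5, and the aged caerulein mice 4, 2 and 2. In TMM-scaled CPM the young caerulein mice held 1.05, 4.66 and 0.26 and the aged caerulein mice 0.153, 0.0974 and 0.111. Mouse 2 of the young caerulein group thus carried 118 of the group's 147 reads, and all 3 of that group lay above all 3 treated aged mice. The young caerulein and young untreated groups overlapped only through young untreated mouse 2, at 0.358 CPM.

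In young mice Il1b rose from 0.157 ± 0.183 to 1.99 ± 2.35 CPM (SD, n = 3 each), with a difference of 3.51 ± 1.09 in log2 (SE, adjusted p = 0.021). Summed over each group, the count ratio was 11.9 (95% interval 6.48 to 24.4, exact, counting error only). The log2 fold change without young untreated mouse 2 was 4.95 ± 1.32 (adjusted p = 0.00628). Without young untreated mouse 1 it no longer passed (3.30 ± 1.28, adjusted p = 0.0559), and without young caerulein mouse 2 the gene had too few reads to be tested. In aged mice 8 reads stood against 0, 1.25-fold above a floor of 3 reads over the group, and the exact interval of the ratio of reads began at 0.801. No aged change was called (adjusted p = 0.233).

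Between the treated groups Il1b was at 0.12 ± 0.0288 CPM in aged and 1.99 ± 2.35 CPM in young mice, a count ratio of 0.0568 (95% interval 0.0241 to 0.115) and a log2 fold change of -3.97 ± 1.13 (adjusted p = 0.089). This test passed without young untreated mouse 2 (-3.99 ± 0.96, adjusted p = 0.0154). The responses of the ages were not shown to differ (difference of log2 fold changes 0.87 ± 1.65, adjusted p = 0.865), with an aged baseline of 0 reads. Leaving out young untreated mouse 2 turned the sign of that difference (-0.63 ± 2.23, adjusted p = 0.941).

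Among treated young mice the sum of neutrophil markers ran in the same order as Il1b. Treated aged mice had too few Il1b reads for such a comparison. The 10 markers summed to 6.18, 22.9 and 2.81 CPM in young caerulein mice 1 to 3 and to 2.44, 2.82 and 2.66 CPM in the aged caerulein mice. Untreated libraries held 0.73 to 1.85 CPM, apart from 8.44 CPM in young untreated mouse 2. The young caerulein mice had the same order for both quantities, with mouse 2 highest and mouse 3 lowest. S100a8, an abundant neutrophil calcium-binding protein, had 25, 122 and 9 reads in treated young mice and 7, 1 and 1 in treated aged mice, and its partner S100a9 had 32, 148 and 10 against 8, 10 and 4. Mmp9 had the most reads of the 10 in every treated aged mouse, at 30, 26 and 25, against 15, 38 and 6 in treated young mice. Its change was -0.43 ± 0.59 after caerulein in young mice (adjusted p = 0.566). Between treated ages it was 0.60 ± 0.59 (adjusted p = 0.662), opposite in sign to Il1b. Between 2 and 4 of the 10 markers were at 0 in each treated library, among them Ly6g in nearly all. In young mice 2 of 7 tested markers rose and 0 fell, beside 27.5% of all genes that were higher, and 6 of 7 rose without young untreated mouse 2, beside 30.8%. Between treated ages 0 of 7 were called by edgeR, and 4 of 7 were lower in aged mice without young untreated mouse 2, where 6.31% of all genes were lower. Without that mouse S100a8, Cxcr2, Retnlg and Mmp8 had 0 reads in every untreated library and passed the read filter through treated young mice. Higher values there were thus favoured in advance, and these counts are not a test of the markers. The part of neutrophil number in the Il1b values was not tested.

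**Figure D2:**
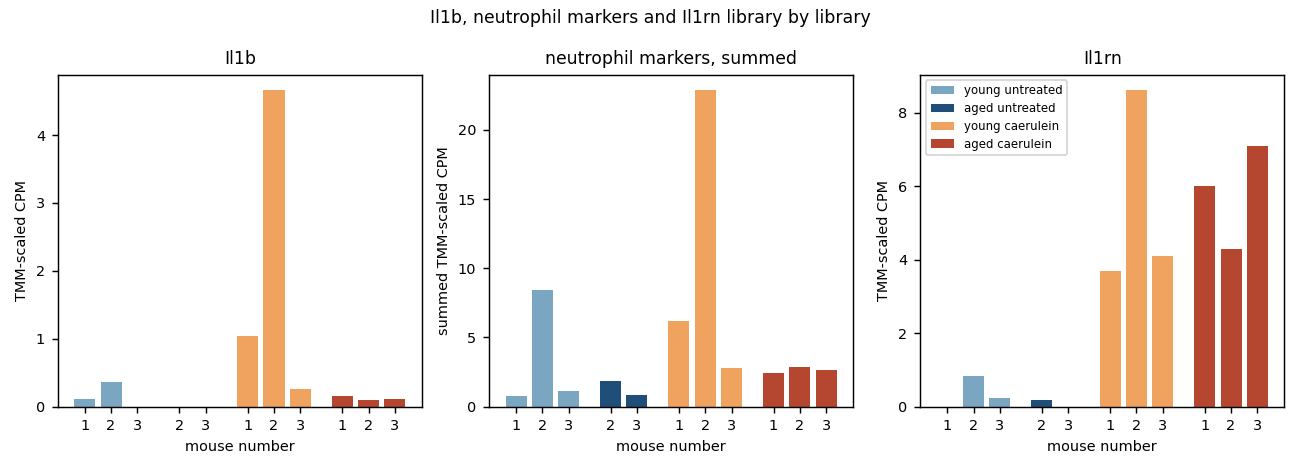
TMM-scaled CPM of Il1b (left), of 10 neutrophil markers summed (middle) and of Il1rn (right) on linear vertical axes from 0, with 1 bar per mouse, ordered by group and mouse number on the horizontal axis. Young caerulein mouse 2 was highest in all 3 panels, at 4.66, 22.9 and 8.61 CPM. The treated aged mice had Il1b bars of at most 0.153 CPM and Il1rn bars of 4.29 to 7.10 CPM.

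Il1rn encodes the receptor antagonist and lies at chromosome 2, 24336853 to 24351494 on the plus strand (ENSMUSG00000026981). Untreated young mice had 0, 21 and 4 reads and untreated aged mice 2 and 0. Treated young mice had 85, 218 and 79 reads (3.70, 8.61 and 4.10 CPM) and treated aged mice 157, 88 and 128 (5.99, 4.29 and 7.10 CPM). Every treated mouse was above every untreated one, by a wide margin, and the treated ages overlapped.

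Il1rn rose from 0.355 ± 0.432 to 5.47 ± 2.73 CPM in young mice, by a log2 fold change of 3.81 ± 0.76 (adjusted p = 0.00159) and a count ratio of 13.6 (95% interval 9.10 to 21.3). Of the 25 untreated young reads 21 came from mouse 2, and without that library the log2 fold change was 5.47 ± 0.72 (adjusted p = 1.98e-05) and the count ratio 49.8 (19.3 to 184). In aged mice it rose from 0.084 ± 0.119 (n = 2) to 5.79 ± 1.42 CPM (adjusted p = 0.00125), with 373 reads against 2, a ratio of 87.5 (24.0 to 725). Il1rn kept its call at both ages under each of the 22 alternatives run. Between treated ages the count ratio was 1.02 (0.881 to 1.18) and the log2 fold change 0.08 ± 0.62 (adjusted p = 0.971), so a difference of either sign within about that error was not detectable. The difference of the responses was 2.48 ± 1.57 (adjusted p = 0.531), and 0.79 ± 1.71 without young untreated mouse 2 (adjusted p = 0.887).

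Per kilobase of gene length, the antagonist can be set beside its agonists within a library. Il1rn over the sum of Il1a and Il1b was 1.13, 0.621 and 5.44 in young caerulein mice 1 to 3 and 6.13, 15.2 and 14.9 in aged caerulein mice 1 to 3. All 3 aged ratios were above all 3 young ones, although the margin between 5.44 and 6.13 was small and the aged denominators held 2 to 9 reads. The ratio follows from the Il1b values already given and is no separate evidence. Untreated libraries had too few reads for such a ratio.

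Il33 encodes the nuclear alarmin IL-33 and lies at chromosome 19, 29925114 to 29960718 on the plus strand (ENSMUSG00000024810). Untreated young mice had 32, 189 and 32 reads (1.80, 7.53 and 1.84 CPM) and untreated aged mice 11 and 37 (0.924 and 2.00 CPM). Treated young mice had 32, 43 and 12 reads (1.39, 1.70 and 0.623 CPM) and treated aged mice 69, 176 and 74 (2.63, 8.57 and 4.10 CPM). Leaving young untreated mouse 2 aside, the untreated and the treated young mice stayed between 0.623 and 2.00 CPM, below all treated aged mice. The treated young mice lay just below all untreated young mice.

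In aged mice Il33 went from 1.46 ± 0.763 to 5.10 ± 3.09 CPM, a count ratio of 3.12 (95% interval 2.30 to 4.32), but the log2 fold change of 1.76 ± 0.76 did not pass (adjusted p = 0.0777). It passed without young untreated mouse 2, at 1.67 ± 0.52 (adjusted p = 0.0131). In young mice the log2 fold change was -1.59 ± 0.65 (adjusted p = 0.0598) and, without that library, -0.58 ± 0.52 (adjusted p = 0.366), so the size of the young value rested largely on 1 untreated mouse. It passed without young untreated mouse 1 (-1.93 ± 0.66, adjusted p = 0.0317) or mouse 3 (-1.92 ± 0.66, adjusted p = 0.0327). DESeq2 called it (-1.64 ± 0.64, adjusted p = 0.0218).

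Between treated ages Il33 was at 5.10 ± 3.09 CPM in aged and 1.24 ± 0.554 CPM in young mice, with a count ratio of 3.82 (3.01 to 4.90) and a log2 fold change of 2.02 ± 0.65 (adjusted p = 0.122). This difference passed without young untreated mouse 2 (1.98 ± 0.44, adjusted p = 0.00889). The responses to caerulein differed between ages by 3.35 ± 1.00 on the log2 scale (adjusted p = 0.22), or by 2.25 ± 0.74 without young untreated mouse 2 (adjusted p = 0.143), and DESeq2 called that difference in both cases (adjusted p = 0.0245 and 0.0304). Markers of cells known to store IL-33 are given beside these values. Endothelial markers summed to 48.4 to 55.6 CPM in aged and 43.9 to 72.5 CPM in young treated mice, and fibroblast and stellate markers to 92.1 to 111 and 80.4 to 126 CPM, with 0 of 5 and 0 of 6 called between treated ages. Over all genes 3.73% passed between treated ages, 2.46% higher in aged mice. Duct markers summed to 264 to 309 CPM in aged and 260 to 289 CPM in young treated mice, and 1 of these 6 was called. That was Sox9, a transcription factor of duct cells, with 755, 686 and 601 reads in aged and 146, 303 and 129 in young treated mice (1.93 ± 0.26, adjusted p = 0.00308). The endothelial receptor gene Kdr was also higher in each treated aged mouse, at 8.62 ± 0.305 against 6.30 ± 0.469 CPM, but did not pass (0.45 ± 0.22, adjusted p = 0.301). Sox9 and Kdr were named after their values were seen, and other markers of the same lists ran the other way. The duct marker Krt19 had 2316, 1768 and 2172 reads in aged and 3076, 3403 and 2365 in young treated mice. The endothelial marker Plvap had 517, 377 and 447 against 626, 494 and 657. Neither was called. Macrophage and monocyte markers summed to 88.4 to 107 CPM in aged and 53.6 to 102 CPM in young treated mice. The part of these cells in the Il33 values was not tested.

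Il18 encodes an inducer of interferon-γ and lies at chromosome 9, 50554827 to 50581840 on the plus strand (ENSMUSG00000039217). It had 0, 16 and 5 reads in untreated young, 0 and 0 in untreated aged, 3, 3 and 0 in treated young and 8, 7 and 1 in treated aged mice. These are too few for the read filter, so the gene was not among those tested. The 16 treated aged reads against 0 untreated ones were 2.50-fold above a floor of 3 reads over the group, or 0.0987 CPM. The exact interval of the ratio of reads began at 1.81, and all 3 treated aged mice were above both untreated ones. With no filter the aged difference had an adjusted p of 0.0643. The treated ages overlapped, with a count ratio of aged over young of 2.78 (1.03 to 8.68, counting error only).

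Il1a encodes the other agonist, IL-1α, and lies 54597 bases from Il1b on the same strand, at chromosome 2, 129299610 to 129309972 (ENSMUSG00000027399). It was close to the detection limit in every group, with 0, 14 and 0 reads in untreated young, 1 and 0 in untreated aged, 2, 3 and 0 in treated young and 5, 0 and 1 in treated aged mice. Young untreated mouse 2 held the most, 0.558 CPM, and the next highest library 0.191 CPM. All groups overlapped, and the ratio of aged treated to untreated reads was 2.81 (0.341 to 129, counting error only). At this depth no change of Il1a was detectable, and its exons share 222 bases with Gm14023 on the opposite strand. The labels do not state whether counting used strand, which means that reads of those bases cannot be told apart. For Il1b the stretch shared with Il1bos was 25 bases and for Il1rap that with Gm20319 was 552.

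Il1r1, the signalling receptor of both agonists, lies at chromosome 1, 40225080 to 40317257 on the plus strand (ENSMUSG00000026072). Untreated young mice held 4.44, 4.54 and 1.96 CPM, untreated aged mice 2.35 and 3.30, treated young mice 8.14, 3.08 and 6.86, and treated aged mice 3.63, 6.53 and 10.9. The aged groups did not overlap, and the young groups overlapped through treated mouse 2, the library richest in Il1b. The aged change was 1.29 ± 0.55 on the log2 scale (adjusted p = 0.0733, called by DESeq2 at adjusted p = 0.0425) and the young change 0.71 ± 0.46 (adjusted p = 0.213), or 0.86 ± 0.49 with young untreated mouse 2 left out (adjusted p = 0.153). The treated ages differed by 0.21 ± 0.45 (adjusted p = 0.861). Leaving out treated aged mouse 1 brought the aged change to 1.60 ± 0.52 (adjusted p = 0.0319).

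Il1rap, the accessory chain that both Il1r1 and Il1rl1 need to signal, lies at chromosome 16, 26581704 to 26730117 on the plus strand (ENSMUSG00000022514). Among untreated mice it varied little, at 3.15, 2.31 and 2.82 CPM in young and 4.45 and 3.63 CPM in aged mice. Treated young mice held 1.31, 1.74 and 0.727 CPM and treated aged mice 1.22, 2.39 and 1.22 CPM. Treated mice were below untreated mice of their age in every case, and both untreated aged mice were above all untreated young ones.

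Il1rap fell by 1.12 ± 0.37 on the log2 scale in young mice (adjusted p = 0.0245) and by 1.32 ± 0.40 in aged mice (adjusted p = 0.0171), with count ratios of 0.482 (0.368 to 0.628) and 0.403 (0.306 to 0.528). The values without young untreated mouse 2 were -1.27 ± 0.37 (adjusted p = 0.00917) and -1.39 ± 0.36 (adjusted p = 0.00474). Scaled by library totals alone, neither passed (-0.58 ± 0.39, adjusted p = 0.245, and -0.73 ± 0.43, adjusted p = 0.196). That scaling raised the median of all genes by 0.494 in young and 0.619 in aged mice on the log2 scale, and the decreases are therefore relative to the TMM-scaled median. The young call was also lost without young untreated mouse 1 (adjusted p = 0.0612) or treated mouse 1 (0.0556) or 3 (0.0812), and the aged call without untreated mouse 2 (0.122) or 3 (0.0568) or treated mouse 1 (0.0593) or 3 (0.0555). The aged and young levels in untreated mice, 4.04 ± 0.582 and 2.76 ± 0.421 CPM, gave a log2 fold change of 0.55 ± 0.39 (adjusted p = 0.655).

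The ratio of receptor to partner was higher after caerulein in most libraries. Per kilobase, Il1r1 over Il1rap was 2.52, 3.51 and 1.24 in untreated young, 0.943 and 1.63 in untreated aged, 11.1, 3.16 and 16.8 in treated young and 5.30, 4.88 and 15.9 in treated aged mice. The aged groups were separate, and treated young mouse 2 lay within the untreated young range. A ratio within a library shows unequal change and does not say which of the genes changed.

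Il1rl1 encodes ST2, the receptor of IL-33, and lies 112312 bases beyond Il1r1, at chromosome 1, 40429570 to 40465415 on the plus strand (ENSMUSG00000026069). It had 3, 11 and 1 reads in untreated young, 2 and 3 in untreated aged, 12, 24 and 2 in treated young and 1, 1 and 8 in treated aged mice. All 4 groups overlapped. The log2 fold changes were 1.18 ± 0.97 in young mice (adjusted p = 0.326, and 2.13 ± 1.12 with adjusted p = 0.121 without young untreated mouse 2), 0.01 ± 1.55 in aged mice (adjusted p = 0.996) and -1.65 ± 1.01 between treated ages (adjusted p = 0.431). The error of each left changes of several-fold undetected. Mast cells are known to carry ST2, and their 7 markers summed to 7.75 to 9.24 CPM in untreated mice of both ages, 6.16 to 7.53 CPM in treated young and 3.02 to 3.55 CPM in treated aged mice. Nearly all of that sum was Kit, which other cells also express, with 152, 145 and 144 reads in treated young and 79, 61 and 55 in treated aged mice (-1.13 ± 0.15, adjusted p = 0.00308). Among the other mast cell markers no treated library had more than 8 reads of any, and 1 to 5 of the 7 were at 0. Group 2 innate lymphoid cells are also known to carry ST2. Their 6 markers summed to 26.5 to 33.3 CPM in treated young and 42.3 to 47.8 CPM in treated aged mice, opposite in direction to Il1rl1. Nearly all of that sum was Rora, and Il13 had 0 reads in every library. The part of either cell type in the Il1rl1 values was not tested.

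**Figure D3:**
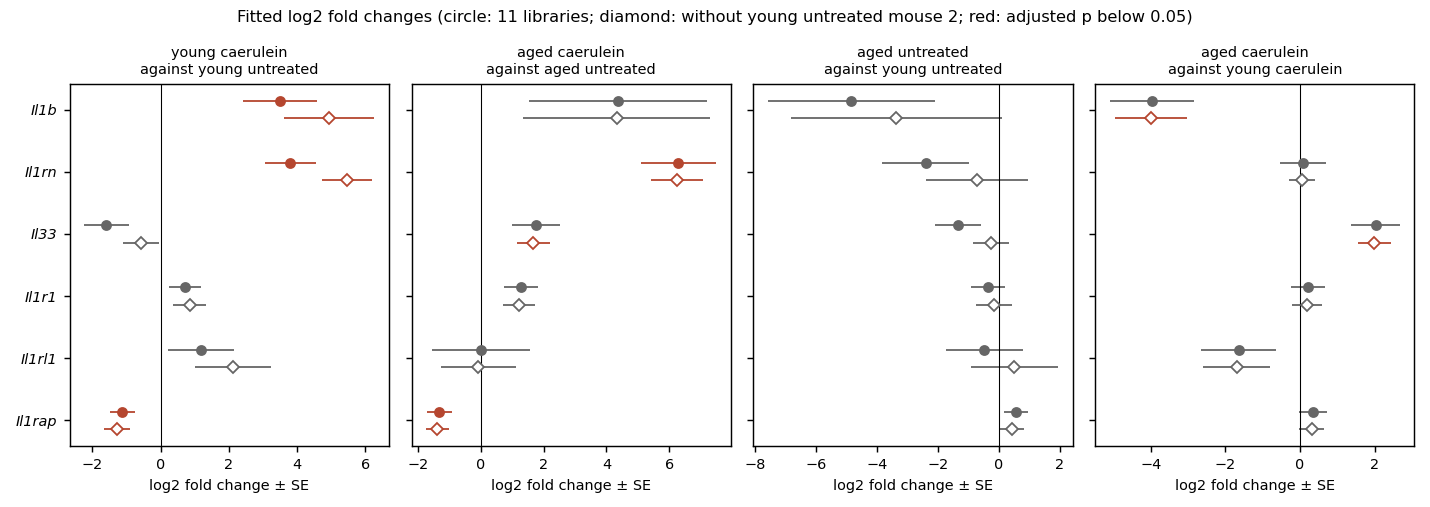
Log2 fold changes (horizontal axes, bars ± SE) of the 6 genes tested in 4 comparisons (panels), from all 11 libraries (circles) and without young untreated mouse 2 (open diamonds), in red where the adjusted p was below 0.05. Il1rn at 3.81 and 6.29 and Il1rap at -1.12 and -1.32 were red in both caerulein panels. Il1b and Il33 in the right panel, at -3.97 and 2.02, were red only as diamonds.

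Levels compared between genes per kilobase of length placed Il33 first and Il1r1 second in both untreated groups, at 1.29 ± 1.14 and 0.573 ± 0.230 CPM per kb in young (0.630 ± 0.0105 and 0.502 ± 0.276 without mouse 2) and 0.507 ± 0.264 and 0.444 ± 0.106 in aged mice. These neighbours did not differ beyond their spread. In treated young mice Il1b (1.04 ± 1.23), Il1rn (0.989 ± 0.492) and Il1r1 (0.947 ± 0.413 CPM per kb) led without separating from each other, and Il33 followed at 0.429 ± 0.192. In treated aged mice Il33 (1.77 ± 1.07), Il1r1 (1.10 ± 0.573) and Il1rn (1.05 ± 0.256 CPM per kb) led, again within their spread. Next came Il18 (0.227 ± 0.151) and Il1rap (0.142 ± 0.0592), while Il1b was sixth at 0.0631 ± 0.0151 CPM per kb. Il1rl1 was last or close to last in every group except untreated aged mice, where Il1b and Il18 were at 0 reads.

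The rest of the pathway was covered by 65 further genes in the table. Of 6 other family ligands and soluble inhibitors, Il1f5, Il1f6, Il1f8 and Il1f10 had 0 reads in all 11 libraries and only Il18bp, the secreted trap for IL-18, could be tested. Il18bp fell in young mice, from 1.71 ± 1.35 to 0.344 ± 0.0778 CPM (-2.32 ± 0.58 in log2, adjusted p = 0.0064). Mouse 2 held 82 of the 115 untreated young reads, and without it the change was -1.49 ± 0.52 (adjusted p = 0.0256). Il18bp was at 0.52 ± 0.26 and 0.493 ± 0.144 CPM in untreated and treated aged mice. Over all genes 52.3% passed in young and 48.2% in aged mice. Of 5 other receptors tested, edgeR called 0 in young mice (1 at an unadjusted p below 0.05 and 1 by DESeq2, Sigirr). In aged mice 1 fell. That was Sigirr, a family member that restrains signalling, at -0.87 ± 0.21 (adjusted p = 0.00563). Its young change of -0.48 ± 0.19 (adjusted p = 0.0533) passed once young untreated mouse 2 was left out (-0.53 ± 0.21, adjusted p = 0.0416). Il1r2, the decoy that binds IL-1 without signalling, had 0, 9 and 7 reads in untreated young, 0 and 1 in untreated aged, 12, 27 and 12 in treated young and 0, 4 and 2 in treated aged mice. The treated ages did not overlap for Il1r2, yet the difference did not pass (-2.86 ± 1.04, adjusted p = 0.17).

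Among 14 genes of receptor signalling, 6 rose and 1 fell in young mice, where 27.5% of all genes were higher and 24.7% lower. In aged mice 8 rose and 2 fell, where 27% were higher and 21.2% lower. The list medians were 0.38 and 0.58 on the log2 scale beside -0.06 and 0.07 over all genes. Irak3, an inhibitory kinase-like protein of this pathway, went from 2.36 ± 0.25 to 8.97 ± 1.04 CPM in young mice (1.93 ± 0.18, adjusted p = 7.2e-06) and from 2.03 ± 0.73 to 14.9 ± 0.12 CPM in aged mice (2.84 ± 0.22, adjusted p = 2.22e-06). Irak2, a kinase that sustains the signal, rose by 1.33 ± 0.20 and 2.14 ± 0.24, and Chuk, which encodes IκB kinase α, by 0.88 ± 0.11 and 1.14 ± 0.12. Tab2, an adaptor of the kinase TAK1, rose by 0.71 ± 0.13 in young and 0.71 ± 0.15 in aged mice, and Tollip, an adaptor that dampens the receptor complex, by 0.54 ± 0.12 and 0.79 ± 0.14. The genes that fell, named outside the rule, were Ikbkg, another IκB kinase subunit gene (-0.52 ± 0.16, adjusted p = 0.0196, and -0.92 ± 0.18, adjusted p = 0.00154), and, in aged mice, the TAK1 gene Map3k7 (-0.48 ± 0.12, adjusted p = 0.00493). Myd88 in young mice was not called (0.64 ± 0.32, adjusted p = 0.116) but passed without young untreated mouse 2 (1.17 ± 0.21, adjusted p = 0.00036). Between treated ages 3 of the 14 were higher in aged mice and 0 lower, where 2.46% of all genes were higher. These were Irak3 (0.73 ± 0.17, adjusted p = 0.0379), Chuk (0.49 ± 0.11, adjusted p = 0.0296) and Tollip (0.52 ± 0.12, adjusted p = 0.0428), of which the third lies outside the naming rule and is given because the count is small.

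Of 12 tested genes that process and release the cytokines, 2 rose and 2 fell in young mice and 5 rose and 1 fell in aged mice, beside the same shares of all genes. The other genes of that list had too few reads. Without young untreated mouse 2 only 9 of them could be tested, where 30.8% of all genes were higher in young and 30.7% in aged mice. Of these 9, 4 rose and 1 fell in young mice and 5 rose and 1 fell in aged mice. The 2 that joined in young mice were Casp4, the caspase that senses cytosolic lipopolysaccharide (1.72 ± 0.61, adjusted p = 0.0276), and Nlrp3 (3.40 ± 1.36, adjusted p = 0.0479), named because the count is small. With that mouse they stood at -0.16 ± 0.76 and 2.41 ± 1.04. Capn2, a calpain protease subunit of the kind that can cut the IL-1α precursor, went from 17.1 ± 3.35 to 119 ± 11.7 CPM in young (2.81 ± 0.15) and from 15.1 ± 0.943 to 137 ± 4.76 CPM in aged mice (3.18 ± 0.18). Nek7, a partner of the inflammasome sensor NLRP3, rose by 1.19 ± 0.17 and 1.11 ± 0.19. Pycard, the inflammasome adaptor ASC, fell by 1.97 ± 0.33 and 2.51 ± 0.37, from 4.37 ± 0.706 to 1.11 ± 0.195 CPM in young and from 3.88 ± 0.209 to 0.686 ± 0.298 CPM in aged mice. Casp8, a caspase able to cut IL-1β, fell in young mice (-0.93 ± 0.33, adjusted p = 0.032) and at -0.43 without young untreated mouse 2 was no longer called. Gsdme, a pore-forming gasdermin, rose in aged mice (1.39 ± 0.45, adjusted p = 0.0243). Between treated ages edgeR called 0 of 12 (1 at an unadjusted p below 0.05 and 1 by DESeq2), where 3.73% of all genes passed. Without young untreated mouse 2 it called 1 of 9, beside 14.2% of all genes. That was the calpain subunit gene Capn1 (-1.04 ± 0.18, adjusted p = 0.00203).

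Of 15 tested genes known to be induced by IL-1, 10 rose in young and 8 in aged mice and none fell by this test. The other genes of that list had too few reads. Over all genes 27.5% were higher in young and 27% in aged mice. The list medians were 2.20 and 3.47 on the log2 scale. Without young untreated mouse 2 the counts were 12 and 11 of 15, where 30.8% and 30.7% of all genes were higher. Some of the 15, such as Cxcl2 and Ccl2, had almost no untreated reads and passed the read filter through treated libraries. Their rise was thus favoured in advance, and these counts are not a test of the list. These genes answer many stimuli besides IL-1. Lcn2, an iron-sequestering acute-phase protein, went from 0.36 ± 0.0333 to 32.3 ± 7.89 CPM in young (6.45 ± 0.35) and from 0.51 ± 0.109 to 30.5 ± 10.9 CPM in aged mice (5.92 ± 0.42). Ccl2, a monocyte chemoattractant, had 697 reads in treated young mice against 6 in untreated ones, and 355 in treated aged mice against 0. Cxcl2, which attracts neutrophils, had 157 against 1 and 40 against 0, and Sele, an adhesion molecule of activated endothelium, 55 against 9 and 56 against 0. Nfkbiz, a nuclear cofactor of NF-kB, rose by 1.97 ± 0.27 in young mice, and Socs3, a brake on cytokine signalling, by 3.67 ± 0.58 in aged mice. Between treated ages edgeR called 0 of 15 (3 at an unadjusted p below 0.05 and 0 by DESeq2), where 3.73% of all genes passed.

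**Figure D4:**
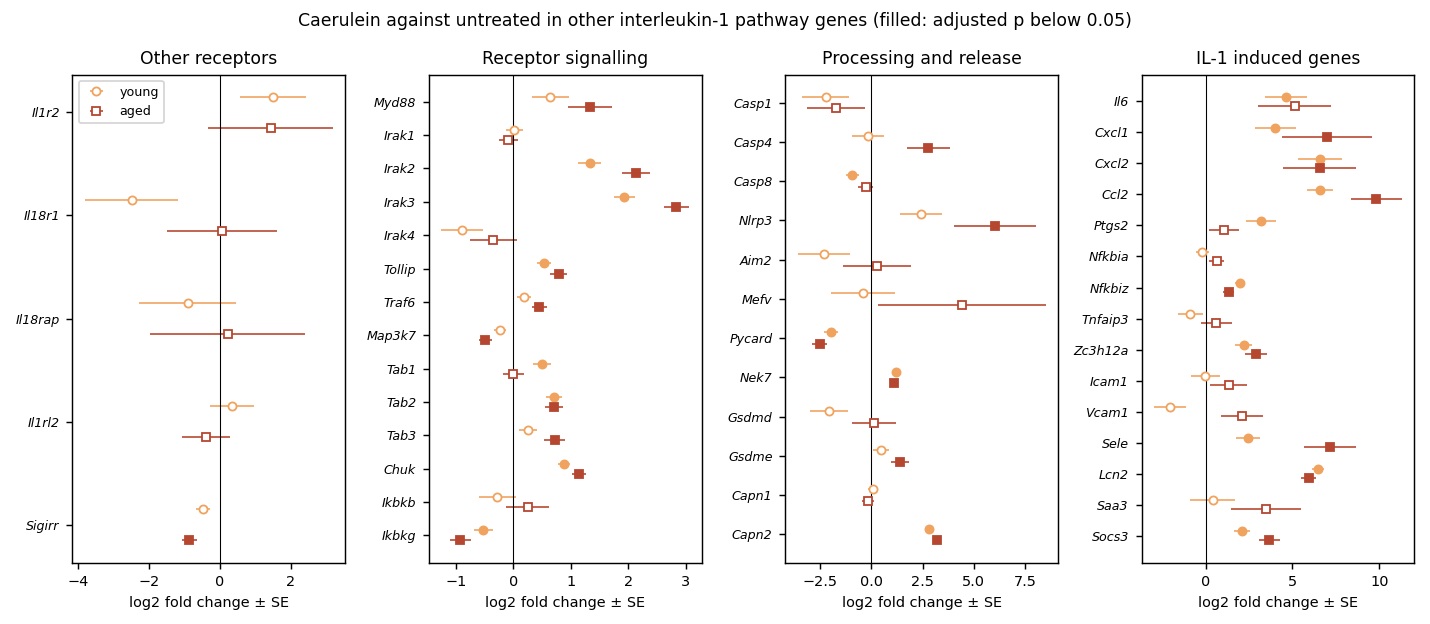
Log2 fold changes of caerulein against untreated (horizontal axes, bars ± SE) for the tested genes of 4 pathway lists (panels), in young (orange circles) and aged mice (red squares), filled where the adjusted p was below 0.05. Of the IL-1 induced genes 10 of 15 circles and 8 of 15 squares are filled, all to the right of 0. Over all genes 27.5% were higher in young and 27% in aged mice. Pycard lies left of 0 at both ages, at -1.97 and -2.51.

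The authors' deposited table of comparisons gave Il1rn log2 fold changes of 3.88 (adjusted p = 5.14e-06) in young and 6.40 (adjusted p = 1.89e-08) in aged mice. In the authors' deposited table Il33 passed in young mice (-1.60, adjusted p = 0.0454), in aged mice (1.74, adjusted p = 0.00212) and between treated ages (2.01, adjusted p = 8.56e-05). The authors' deposited table also listed Il1b as lower in treated aged than treated young mice (-4.05, adjusted p = 9.9e-05) and Il1r1 as higher after caerulein in aged mice (1.26, adjusted p = 0.00732). For these values the signs were those of the fit used here and the adjusted p-values were smaller. For Il1rap in young mice the authors' deposited table gave -1.15 with a larger one (adjusted p = 0.0468). No source used here names the tool behind that table.

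The genes whose levels ran most like each member were taken by Pearson correlation of log2 CPM over the 11 libraries among 10650 genes, and are given without a test because the libraries share treatment and depth. For Il1b these were Csf3r (r = 0.915, and 0.938 over the 10 libraries without young untreated mouse 2), Vsig10 (0.913) and Mboat1 (0.899). Csf3r, the receptor for granulocyte colony-stimulating factor, is on the neutrophil list above. For Il1rn they were Rnf19a (0.993), Gabpb1 (0.985) and Rnd3 (0.983), with 0.982 or more for each without that library. For Il33 they were Lmcd1 (0.944), the matrix protein gene Tgfbi (0.91) and Coro7 (0.905). For Il1r1 they were Arhgap24 (0.838), Nectin3 (0.832) and Rims3 (0.83), and for Il1rl1 Fcho2 (0.813), Mgp (0.807) and Gsn (0.801), the lowest values among the members. For Il1rap they were Zfp526 (0.969), Rims4 (0.96) and Tmem104 (0.954).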

How the data were processed

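Poly(A) RNA of whole mouse pancreas was sequenced as 150-base read pairs in 11 libraries, and, per the submitters' processing notes, HISAT2 2.0.5 aligned the reads to mm10 and featureCounts 1.5.0-p3 counted them. The deposited table holds unnormalised whole-number counts, with gene lengths and positions, per the file headers. The authors' comparison tables hold log2 fold changes and p-values, per the file headers. A deposited FPKM table was not used. The annotation release and strand setting were not given in the sources used here.

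From the counts, genes were kept by filterByExpr with the 4 groups (14113 of 54532, or 13567 without young untreated mouse 2), which passed 6 of the 8 members. Libraries were scaled by TMM (factors 0.696 to 1.29), and 1 model with 4 groups was fitted in edgeR 4.0.16 (R 4.3.3). Quasi-likelihood F tests were called at a Benjamini-Hochberg adjusted p below 0.05 over the whole table. The fit and the count intervals were tested on simulated data, in which few genes changed and only in a single group. Scaling when as many genes change as after caerulein was not tested that way. Count ratios carry exact 95% intervals, for counting error only, because PCR copies of 1 molecule cannot be recognised here. Floors are 3 reads per group. P-values measure the spread between these libraries, each 1 mouse by the labels. No libraries were duplicates (chi-square per degree of freedom of replicate pairs 12.1 to 94.2).

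Mouse numbers were checked as pairs by correlating deviations from group means. Same-numbered young untreated and young caerulein mice gave r = 0.106, 0.149 and 0.114, and nothing in the labels links them. Differently numbered mice of these groups gave -0.24 to 0.149, so the numbers were not shown to mark pairs. For aged caerulein against aged untreated mice the same-numbered pairs gave 0.00513 and 0.13, and between untreated ages 0.0024 and -0.0222. Between treated ages they gave -0.207, 0.104 and -0.0458. With only 2 untreated aged mice, their deviations mirror each other, so values that involve them carry little information. The members and gene lists were chosen with earlier results of these data known. All 8 members were named in every comparison, with up to 4 genes of smallest p per pathway list in each caerulein comparison and up to 2 in the others. Alternatives were no filter, a stricter filter (CPM of 1 in 3 libraries), library totals alone, DESeq2 size factors, the whole of DESeq2 1.42.0, the mouse number as a block, only the groups compared, each library left out, and pairs of these.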

Additional observations from a re-analysis of the deposited data

How the results depend on the processing

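Il1rn kept its direction and call after caerulein at both ages in 22 of 22 alternatives (log2 fold change 3.27 to 6.22 in young and 5.08 to 9.95 in aged mice), and Il1rap in 17 and 16 of 22. Il1b in young mice kept them in 16 of 17, because only 17 of the 22 alternatives gave it a test. It had none without young caerulein mouse 2, which held most of its reads. Il33 was called in 5 of 22 alternatives in young mice, 9 in aged mice, 8 between treated ages and 4 for the difference of responses, and its direction held in all but 1, named below. The cause of the changes was not tested.

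With each library left out in turn, 1 to 4 members were called in young mice, 1 to 3 in aged mice, 0 to 2 between treated ages and 0 in the other comparisons. In aged mice 4 members were called with no filter, with DESeq2 and with only the groups compared, 5 without young untreated mouse 2 and no filter, and 4 without mouse 2 of both young groups, a setting chosen after seeing the data. Between treated ages 2 were called with no filter or DESeq2, and without young untreated mouse 2 with any of no filter, DESeq2 and library totals, but 1 with only the groups compared and 1 without both mice. For the difference of responses 1 was called with no filter or DESeq2, with or without young untreated mouse 2.

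Over all genes, untreated aged against young gave 13 calls, and 707 with no filter, 3 with library totals, 63 with DESeq2, 2 with only the groups compared, 2 to 55 with a library left out, and, without young untreated mouse 2, 248 with no filter, 82 with DESeq2 and 31 with totals, or 48 without both mice. Treated aged against young gave 526, and 814, 215, 913, 1686, 171 to 1921, 2273, 1738, 1510 and 1621 in that order. The difference of responses gave 2, and 674 with no filter, 0 with totals, 282 with DESeq2, 0 to 311 with a library left out, 712, 483 and 121 without young untreated mouse 2, and 292 without both mice. With totals alone the young caerulein calls were 5314 higher and 1269 lower in place of 3888 and 3488, and the aged ones 5451 and 1074 in place of 3806 and 2998. The median of all genes moved by -0.233, -0.117 and 0.117 in the other 3 comparisons.

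With the replicate block, the pairing by mouse number, 3, 2, 0, 0 and 0 members were called in the 5 comparisons, with no member's call changed, and 6874, 6419, 3, 345 and 2 genes in all.

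Signs turned only for values that were not called with all libraries. Il1rl1 in aged mice was -0.044 with DESeq2 size factors, -0.0038 with DESeq2, -0.023 with DESeq2 without young untreated mouse 2, -0.083 without both mice and -1.80 to 0.52 with a library left out. Il1rl1 between untreated ages was 0.47 with no filter and 0.49 with totals without young untreated mouse 2, 0.50 without both mice and -0.90 to 0.50 with a library left out. Between treated ages Il1rn was -0.022 with totals, -0.034 with totals without young untreated mouse 2 and -0.14 to 0.57 with a library left out, Il1r1 -0.15 without both mice and -0.25 to 0.53, and Il1rap -0.052 to 0.65. For the difference of responses Il1b was -0.66 with no filter and -1.15 with totals without young untreated mouse 2 and -0.63 to 1.41 with a library left out, and Il1rap 0.19 without both mice and -0.60 to 0.10. Il33 in young mice was 0.20 with totals without young untreated mouse 2.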
